A study of Mus musculus with 36 samples.

Results

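The 8 genes described here encode proteins that bring cholesterol into cells, move it between membranes or send it out again: Mylip, Scarb1, Npc1, Stard4, Abca1, Abcg1, Abcg5 and Abcg8. They were taken by symbol from 16060 genes with a row in at least 1 of the authors' deposited gene tables, with the 18 of 38061 transcripts that belong to them in the matching transcript tables. The mice were C57BL/6J, and RNA of their liver and of the fat pad under the skin of the groin (inguinal white adipose tissue, iWAT) was sequenced after 16 weeks on a diet. Controls were fed ad libitum (AL), and the others were either calorie-restricted (CR) or time-restricted with no calorie restriction (TR, called TR.al in the labels). There were 6 libraries for each diet in each tissue, 36 in all, from 20 mice, of which 16 gave both tissues. The study asked whether fasting by itself, with calories kept up, changes transcription as calorie restriction does. No further allele or agent is labelled, and the sources used here give neither age, sex nor time of sampling, so the time since the last meal cannot be told apart from the diet.

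Cells take up cholesterol with lipoproteins, a step that the ubiquitin ligase Mylip restrains. They release it from lysosomes through Npc1 with its soluble partner Npc2 and pass it between membranes on carriers such as Stard4. Scarb1 takes cholesteryl ester from high-density lipoprotein, Abca1 and Abcg1 load cholesterol onto acceptor particles outside the cell, and Abcg5 pairs with Abcg8 to secrete sterols from hepatocytes into bile. Sterol shortage activates SREBP-2, encoded by Srebf2, which drives uptake genes, and oxidized sterols activate the LXR receptors, encoded by Nr1h2 and Nr1h3, which drive efflux genes and Mylip.

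Each value comes from a comparison the authors made between groups: a log2 fold change, the log2 of the mean CPM (counts relative to the size of the library) over the libraries compared, and an edgeR likelihood-ratio test with its false discovery rate over all features of the table, called the adjusted p here. A gene was counted as risen or fallen where the adjusted p lay under 0.05. Values per library were not used here, so overlap between single mice and the depth behind a value are unknown. The bracketed approximate 95% intervals were computed from the fold change and the test statistic. The label of the tissue held for its defining genes: albumin (Alb) stood at a log2 mean CPM of 16.5 in the authors' deposited liver table of CR minus AL, adiponectin (Adipoq) stood at 11.4 in the matching iWAT table, and Adipoq, Plin1 and Lep had no row in a liver table. In iWAT, however, Alb stood at 8.74 in the table of CR minus AL and at 11.5 in that of TR minus AL, where Adipoq stood at 11.5 as well. The tissue is bulk, so fewer cells of a type and less RNA per cell cannot be told apart. The iWAT libraries differed in genes of other tissues. All 9 hepatocyte markers fell in iWAT in CR minus TR (median log2 fold change -6.12), and 4 of 8 skeletal muscle markers fell in iWAT in TR minus AL (median -2.97), per the authors' deposited tables.

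Abcg5 and Abcg8 lie head to head on chromosome 17, and the stretch between their start sites is shown because the fold changes of the pair had opposite signs in the liver comparisons against AL, in which neither gene passed. In RefSeq (GRCm38.p6), Abcg5 starts at 84683011 on the minus strand and Abcg8 at 84683121 on the plus strand, 110 nt apart. The plus strand between them, chr17:84683012-84683120, is 109 nt long with a GC content of 45.9%. Capitals mark the matches to AGATAA, the motif of GATA factors, and to TATAAA, the TATA box, on either strand, and no matches overlap.
Abcg5-Abcg8 interval: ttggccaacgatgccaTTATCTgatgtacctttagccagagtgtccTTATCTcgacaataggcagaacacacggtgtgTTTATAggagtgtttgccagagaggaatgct
The interval holds 2 matches to AGATAA and 1 to TATAAA. Over all 32851 RefSeq promoter windows of 300 nt, 11.2% held AGATAA and 13.6% held TATAAA on either strand. These windows are longer than the interval of 109 nt, so the shares are not of like length. The 300 nt windows of Abcg5 and Abcg8 that cover the interval each held 3 matches to AGATAA and 1 to TATAAA. The window of the other Abcg8 start site held 0 of either. Windows were given for 4 of the 8 genes (Abca1, Abcg5, Abcg8 and Mylip). None of their windows held TCACNCCAC, a form of the sterol response element bound by SREBP, which 1.24% of all windows held. None held an exact direct repeat of AGGTCA with a spacer of 4 nt, a form of the element bound by LXR, which 0.0152% held. Only exact matches were searched, so imperfect forms of either element would be missed. With so few windows holding either sequence, its absence here says little about these genes.

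Scarb1 makes transcripts that end in different protein tails, and the exon that sets them apart is shown because both were measured in both tissues. Scarb1-201 has 13 exons and a coding sequence of 1527 nt, and Scarb1-202 has 12 exons and 1518 nt. Exon 12 of Scarb1-201, absent from Scarb1-202, lies on the minus strand at chr5:125281105-125281233 (GRCm38, GENCODE M21). It is 129 nt long, and capitals mark the stop codon that ends it after 126 coding nt.
Scarb1-201 exon absent from Scarb1-202: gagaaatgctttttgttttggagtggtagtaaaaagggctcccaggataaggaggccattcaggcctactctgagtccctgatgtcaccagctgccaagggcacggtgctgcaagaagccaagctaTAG

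The members differed most between the tissues in their levels. Abcg5 stood at a log2 mean CPM of 5.22 in liver and -0.13 in iWAT in the authors' deposited tables of TR minus AL, and Abcg8 stood at 4.96 and -0.28. The gaps were 5.35 and 5.24 log2 units, and those of the 9 hepatocyte markers ran from 4.63 to 5.61 in the same tables. In the tables of CR minus AL the marker gaps ran from 7.22 to 8.28, and Abcg5 and Abcg8 had a row in 1 of 3 iWAT gene tables, the lowest levels of any member. The part of liver RNA in their iWAT values was not tested. Stard4 was higher in liver by 2.84 log2 units in the tables of CR minus AL. Mylip and Abcg1 showed the reverse, with liver minus iWAT gaps of -3.05 and -3.50. Npc1 (0.90), Abca1 (0.49) and Scarb1 (-0.25) lay closer to equal. The liver and iWAT tables were normalized separately and these gaps carry no test.

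**Figure D1:**
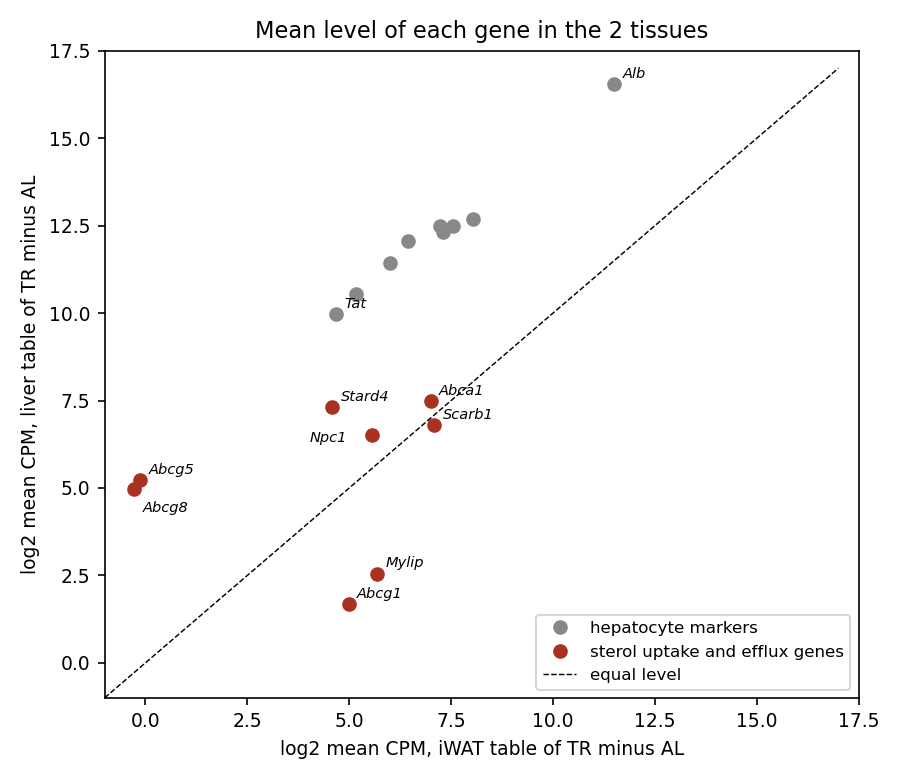
Log2 mean CPM of each gene in the liver table (vertical axis) and the iWAT table (horizontal axis) of TR minus AL, as the authors fitted them. Points above the dashed line are higher in liver: Abcg5 and Abcg8 lie 5.35 and 5.24 above it and the hepatocyte markers (Alb and Tat are named) 4.63 to 5.61, and Mylip and Abcg1 lie below it.

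Per length, Scarb1 led in both tissues. In the authors' deposited liver table of CR minus AL, the leading transcripts in order were Scarb1-201 at 33.1 CPM per kb, Stard4-201 at 31.4, Abca1-201 at 17.6, Npc1-201 at 17.4, Abcg5-201 at 15.8, Abcg8-201 at 6.75, Mylip-201 at 2.19 and Abcg1-201 at 0.564. In the iWAT table of the same diets the order was Scarb1-201 at 38.0 CPM per kb, Mylip-201 at 18.1, Abca1-201 at 12.6, Npc1-201 at 9.31, Abcg1-201 at 6.38 and Stard4-201 at 4.35. Mylip thus moved from near the bottom of the liver order to second place in iWAT. Stard4 moved from second to last of the 6 genes with a row there, Abcg5 and Abcg8 having none. In the iWAT table of TR minus AL, Stard4-201 stood at 4.65 CPM per kb, above Abcg5-201 at 0.357 and Abcg8-201 at 0.197. Without values per library it was not tested which neighbours in these orders differ.

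In liver under calorie restriction, Npc1 fell, and the other 7 genes did not pass the test. Npc1 (chr18:12189692-12236400, minus strand), the lysosomal membrane protein that exports cholesterol taken up with lipoproteins, fell by 0.49 on the log2 scale in the authors' deposited table, to 71.3% of the AL level (-0.70 to -0.28, adjusted p = 0.000222). It was the 1 of 8 genes that passed, where 11.2% of all 12636 genes passed in either direction and 5.37% fell. The fold change lies just short of 0.5, so a minimum size of 0.5 would leave 0 of 8.

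In liver under time-restricted feeding, Npc1 and Mylip fell. Npc1 fell by 0.53 on the log2 scale in the authors' deposited table of TR minus AL, to 69.5% of the AL level (-0.76 to -0.29, adjusted p = 0.000192). Mylip (chr13:45389742-45412022, plus strand), the ubiquitin ligase that restrains lipoprotein uptake, fell by 0.56 on the log2 scale, to 68.1% (-0.92 to -0.19, adjusted p = 0.0219). These were the 2 of 8 genes that passed, where 18.9% of all 12691 genes passed and 9.54% fell. At an adjusted p under 0.01 Npc1 would be the only gene called. The count is also 1 where each gene is read by its leading transcript.

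The CR and TR comparisons share the AL libraries, so their likeness for Npc1 is not independent. In the direct liver comparison of CR minus TR, 0 of 8 genes passed in the authors' deposited edgeR table, where 0.469% of 12593 genes did, and 1 of 8 had an unadjusted p under 0.05, where 10% of all genes did. Npc1 had a log2 fold change of 0.04 (-0.20 to 0.28). Mylip was the 1 gene with a small unadjusted p, 0.0112, at a log2 fold change of 0.46 (0.10 to 0.82, adjusted p = 0.283). Against AL under CR, Mylip had a log2 fold change of -0.10 (-0.45 to 0.25, adjusted p = 0.806). Mylip passed under TR and not under CR, and the direct test of that difference did not pass.

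**Figure D2:**
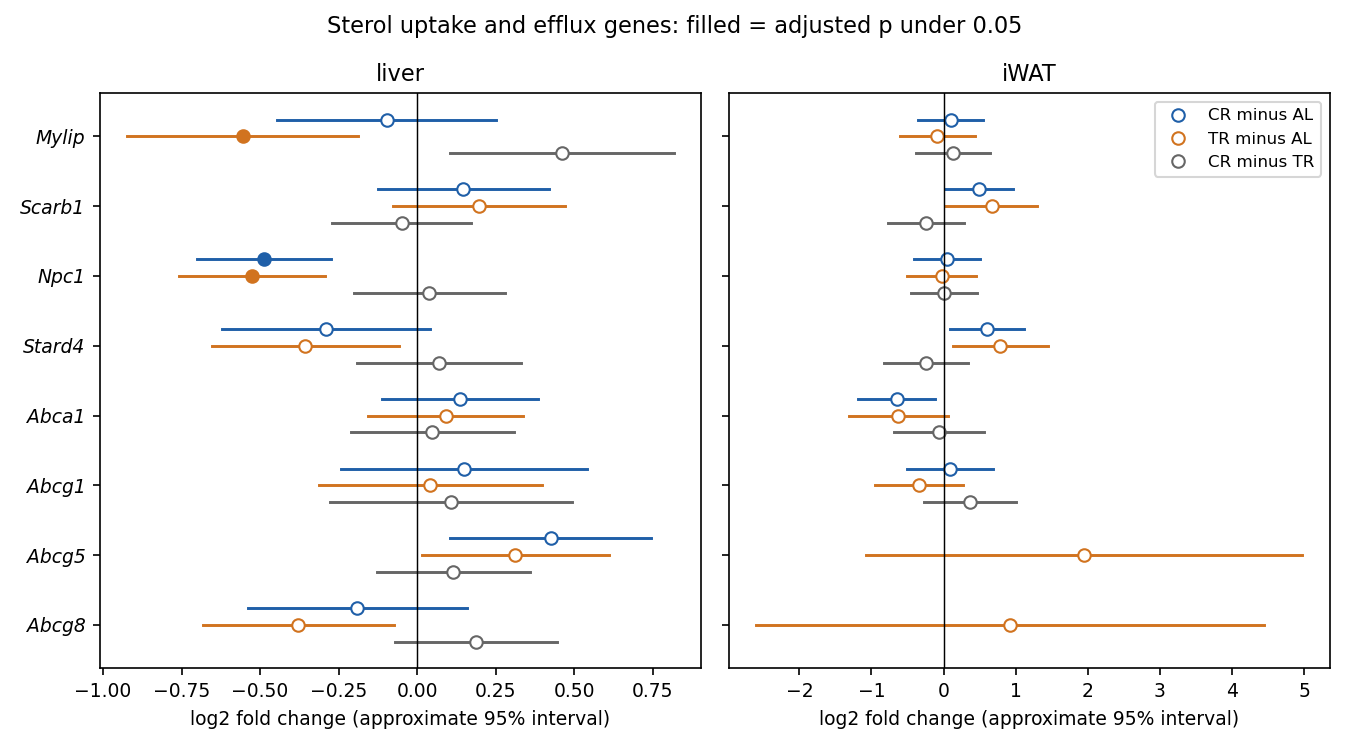
Log2 fold change (horizontal axis) of each gene in liver (left) and iWAT (right) for CR minus AL (blue), TR minus AL (orange) and CR minus TR (grey), with approximate 95% intervals; filled points have an adjusted p under 0.05. Npc1 on both diets and Mylip under TR are the filled points, all in liver, and the iWAT panel has the wider axis.

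The other uptake and transfer genes did not pass in liver. Stard4 (chr18:33199355-33213862, minus strand), a soluble carrier that moves cholesterol between membranes, had log2 fold changes of -0.29 under CR (-0.62 to 0.04, adjusted p = 0.299) and -0.36 under TR (-0.65 to -0.06, adjusted p = 0.0822) in the authors' deposited tables. Scarb1 (chr5:125277087-125341094, minus strand) had 0.15 under CR (-0.12 to 0.42) and 0.20 under TR (-0.08 to 0.47). Both of its intervals reach 0, and their upper ends are below an increase of 0.5 log2 units.

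The efflux genes did not pass in liver either, and the partners Abcg5 and Abcg8 had fold changes of opposite sign against AL. Abca1 (chr4:53030787-53159895, minus strand) had log2 fold changes of 0.14 under CR (-0.11 to 0.38) and 0.09 under TR (-0.16 to 0.34) in the authors' deposited tables. Abcg1 (chr17:31057675-31117988, plus strand), the least abundant member in liver, had 0.15 (-0.24 to 0.54) and 0.04 (-0.31 to 0.40). Abcg5 (chr17:84658234-84683011, minus strand) had 0.43 under CR (0.11 to 0.75, adjusted p = 0.0715) and 0.31 under TR (0.01 to 0.61, adjusted p = 0.139). Abcg8 (chr17:84676302-84700333, plus strand) had -0.19 under CR (-0.54 to 0.16, adjusted p = 0.577) and -0.38 under TR (-0.68 to -0.07, adjusted p = 0.0696). The gap of Abcg5 over Abcg8 was thus 0.62 log2 units under CR and 0.69 under TR, and in CR minus TR it was -0.07. The gap was not tested, since that takes values per library.

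The annotations of this pair overlap, and whether this affected how their reads were divided was not tested. In GENCODE M21 the Abcg8 gene begins inside Abcg5 through the transcript Abcg8-202, and the genes share 6710 nt on opposite strands, 84676302 to 84683011. That length is of the whole genes, introns included, and the overlap of their exons was not computed. The kit's strandedness is not stated, so reads in that stretch may not have been told apart. The leading transcripts had the signs of their genes in the authors' deposited transcript tables: Abcg5-201 had log2 fold changes of 0.41 under CR and 0.31 under TR, and Abcg8-201 had -0.12 and -0.40. Abcg8-203 had -0.45 and -0.31. Per length, Abcg5-201 stood 2.34-fold above Abcg8-201 in the table of CR minus AL and 2.45-fold above it in that of TR minus AL.

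Over the 8 genes the median log2 fold change in liver was 0.02 under CR and -0.16 under TR, beside medians over all genes within 0.01 of 0. An unadjusted p under 0.05 was found for 2 of 8 genes under CR, where 22.8% of all genes had one, and for 5 of 8 under TR, where 30.8% did, in the authors' deposited edgeR tables. Markers of cell types were read beside these results in liver. Of 9 macrophage markers, 0 passed under CR (median -0.14) and 1 fell under TR (Lyz2, median -0.44), and 2 of 9 hepatocyte markers rose under each diet (medians 0.23 and 0.22). Of 5 cholangiocyte markers, 2 rose under CR, and 2 of 4 did under TR (medians 0.74 and 0.82). Of 5 adipocyte markers with a row, 3 fell under each diet and 1 rose under TR (medians -0.66 and -0.61). Their part in the results was not tested.

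In iWAT no member passed under either diet. Under CR, 0 of the 6 genes with a row passed in the authors' deposited edgeR table, where 7.3% of 15295 genes did, and 3 of 6 had an unadjusted p under 0.05, as did 19.7% of all genes. Under TR, 0 of 8 passed, where 10% of 15356 genes did, and 2 of 8 had an unadjusted p under 0.05, as did 23% of all genes. In CR minus TR, 0 of 6 passed, where 0.918% of 14699 genes did, and 0 of 6 had an unadjusted p under 0.05, as did 3.62% of all genes. The 6 fold changes of that last table ran from -0.25 (Stard4) to 0.37 (Abcg1). Precision was lower than in liver: the median approximate standard error of the members was 0.25 and 0.33 log2 units in the iWAT tables against AL, and 0.17 and 0.15 in the liver ones.

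The fold changes of Stard4, Scarb1 and Abca1 in iWAT were close in size to those that passed in liver or larger, but so were those of genes in general. The median absolute log2 fold change over all genes was 0.35 under CR and 0.44 under TR in iWAT, and 0.17 and 0.21 in liver. Stard4 had a log2 fold change of 0.60 under CR (0.08 to 1.11, adjusted p = 0.162) and 0.79 under TR (0.12 to 1.45, adjusted p = 0.125) in the authors' deposited tables. Scarb1 had 0.50 (0.02 to 0.97, adjusted p = 0.221) and 0.66 (0.03 to 1.30, adjusted p = 0.192). Abca1, which hands cholesterol and phospholipid to lipid-poor apolipoprotein A-I, had -0.65 under CR (-1.18 to -0.11, adjusted p = 0.137) and -0.63 under TR (-1.31 to 0.06, adjusted p = 0.276). Npc1 stood near 0 in iWAT, at 0.05 (-0.41 to 0.50) and -0.03 (-0.50 to 0.45). Mylip had 0.10 and -0.09, and Abcg1, which exports cholesterol to high-density lipoprotein, had 0.09 and -0.34.

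Macrophages carry Abca1 and Abcg1, and macrophage markers were read beside them in iWAT. Of 9 markers, 2 fell under each diet, where 7.3% of all genes passed under CR and 10% under TR. Both times these were the scavenger and mannose receptors Cd163 and Mrc1. The list medians were -0.66 under CR and -0.71 under TR in the authors' deposited tables. All 9 fold changes were negative under CR, and 8 were under TR, where the other 1 stood at 1.61. The general macrophage marker Adgre1 had -0.84 under CR (adjusted p = 0.167) and -0.78 under TR (adjusted p = 0.247). Of 8 adipocyte markers, 0 passed under CR (median -0.15), while 1 rose and 2 fell under TR (median 0.08), and 0 of 5 endothelial markers passed under either diet. The part of these cells in the fold changes of Abca1 and Abcg1 was not tested.

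Abcg5 and Abcg8 could be read in iWAT in the table of TR minus AL alone, at log2 fold changes of 1.95 (-1.08 to 4.98) and 0.92 (-2.60 to 4.44). The 9 hepatocyte markers of that authors' deposited table had a median of 2.26, and 0 of 9 passed, with 1 of 9 at an unadjusted p under 0.05. In iWAT under CR, where neither transporter gene had a row, 8 of 9 hepatocyte markers fell, with a median of -3.91.

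For Stard4 the response to TR passed the approximate test of a difference between the tissues, and the response to CR did not. Under TR the effect in iWAT lay 1.14 log2 units above that in liver (0.42 to 1.87), with an adjusted p of 0.0316 from an approximate 2-sided test of the difference over all 12201 genes with rows in both of the authors' deposited tables. This was 1 of 8 genes, where 7.81% of all genes passed. Under CR the difference for Stard4 was 0.89 (0.28 to 1.50, adjusted p = 0.0593), and 0 of 6 genes passed, where 6.73% of 12012 did. An unadjusted p under 0.05 was found for 3 of 6 under CR, where 18.5% of all genes had one, and for 1 of 8 under TR, where 20.1% did. With an assumed correlation of -0.3 between the tissues of a mouse, the TR call for Stard4 is lost, and with 0.3, or at an adjusted p under 0.1, both Stard4 and Abca1 pass under CR. Stard4 was higher in liver than in iWAT, and the hepatocyte markers in iWAT had medians of 2.26 under TR and -3.91 under CR. The part of liver RNA in the Stard4 values was not tested.

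For the other members the difference did not pass. Abca1 lay lower in iWAT than in liver by a difference of -0.78 under CR (-1.37 to -0.20, adjusted p = 0.0949) and -0.72 under TR (-1.45 to 0.01, adjusted p = 0.262). Npc1, which passed in liver and not in iWAT, differed by 0.53 under CR (0.03 to 1.03, adjusted p = 0.229) and 0.50 under TR (-0.03 to 1.03, adjusted p = 0.289), so its decrease was not shown to be particular to liver. Mylip differed by 0.47 under TR (-0.17 to 1.11, adjusted p = 0.437). The differences for Scarb1 were 0.35 and 0.47, with adjusted p of 0.559 and 0.483.

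**Figure D3:**
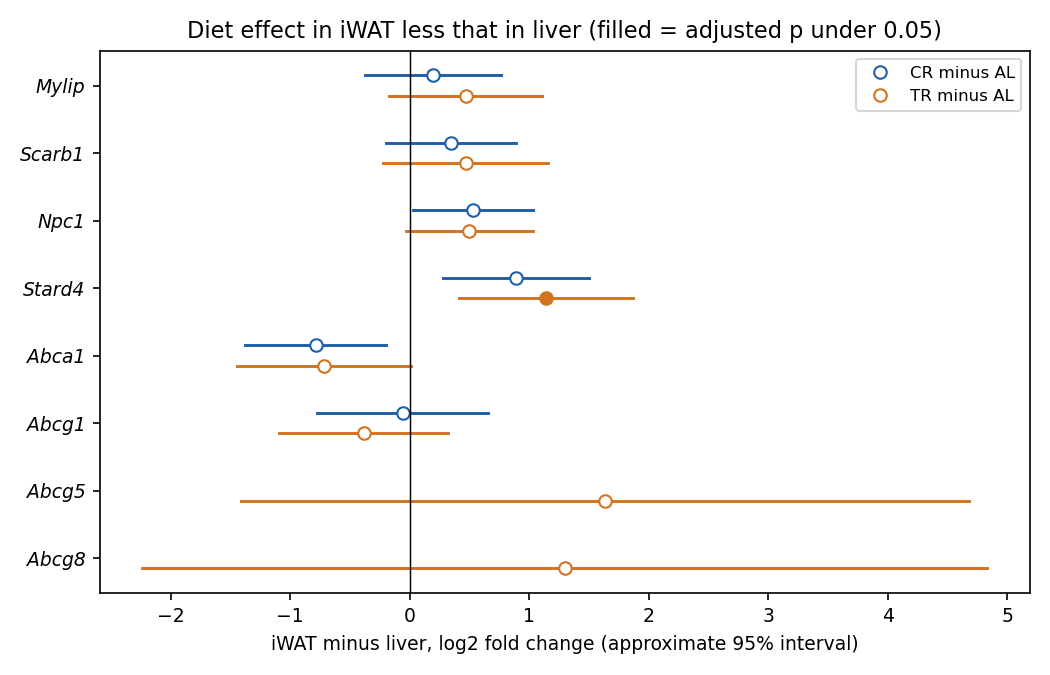
Effect of CR (blue) and TR (orange) in iWAT less that in liver for each gene, in log2 units (horizontal axis) with approximate 95% intervals; the filled point has an adjusted p under 0.05. Stard4 under TR, at 1.14, is the filled point, and Abca1 lies on the other side of 0.

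At the level of transcripts, Npc1-201 repeated the change of its gene, which is not separate support. It was the only Npc1 transcript with a row, and it fell in liver by 0.50 on the log2 scale under CR (-0.79 to -0.21, adjusted p = 0.0297) and by 0.52 under TR (-0.85 to -0.19, adjusted p = 0.0474) in the authors' deposited transcript tables. That is 1 of 16 transcripts under CR, where 2.66% of all 26448 passed, and 1 of 18 under TR, where 3.94% of 26648 did. Mylip-201, likewise the only transcript of its gene, had -0.57 under TR (-1.19 to 0.04, adjusted p = 0.458), a fold change close to that of the gene row with a wider interval. No other member transcript passed: 0 of 16 in liver in CR minus TR (0.323% of all), and in iWAT 0 of 9 under CR (2.45%), 0 of 12 under TR (3.55%) and 0 of 10 in CR minus TR (0.413%). In these edgeR tables the transcripts with an unadjusted p under 0.05 numbered 2 of 16 in liver under CR (9.52% of all transcripts), 2 of 18 under TR (12.6%) and 0 of 16 in CR minus TR (4.45%). In iWAT they numbered 1 of 9 under CR (10.4%), 3 of 12 under TR (13.1%) and 0 of 10 in CR minus TR (2.76%).

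Scarb1 had the most transcripts, and the form that keeps the exon shown above dominated in both tissues. Scarb1-201 made up 74.8% of the gene's CPM per kb in liver and 74.2% in iWAT in the authors' deposited tables of CR minus AL, and Scarb1-202 made up 18.2% and 22.2%. Under TR in iWAT, Scarb1-202 had a log2 fold change of 0.90 (0.19 to 1.62, adjusted p = 0.187) beside 0.60 for Scarb1-201 (-0.07 to 1.27, adjusted p = 0.470). In liver they had -0.02 and 0.28 under TR. The intervals of the paired forms overlap in each case, and their ratio was not tested.

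**Figure D4:**
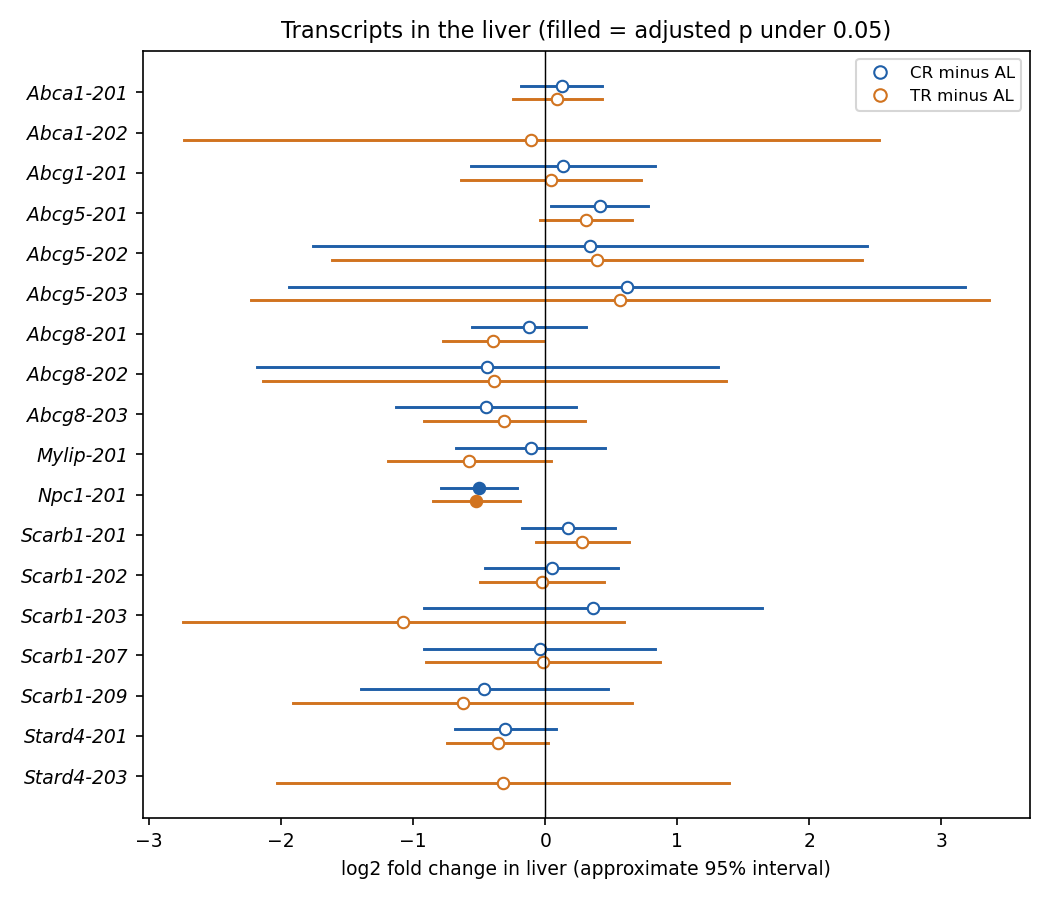
Log2 fold change (horizontal axis) of each transcript of the 8 genes in liver for CR minus AL (blue) and TR minus AL (orange), with approximate 95% intervals; filled points have an adjusted p under 0.05. Npc1-201 is filled on both diets, and the short or rare transcripts have intervals that span several log2 units.

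Around the 8 genes, 35 others of sterol transport and its control were read as a list. In liver under CR, 4 of 33 with a row rose and 1 fell in the authors' deposited table, beside 11.2% of all genes that passed. Those that rose were Lpcat3 at 0.94, Insig1 at 0.57, Npc2 at 0.37 and Stard5 at 0.32, and Srebf2 fell by 0.53 on the log2 scale (adjusted p = 0.0123). Lpcat3 remodels membrane phospholipids, Insig1 retains the SREBP escort protein in the endoplasmic reticulum, and Stard5 is a relative of Stard4. Npc2, which hands cholesterol to Npc1 inside the lysosome, thus rose where Npc1 fell. In liver under TR, 4 of 33 rose (Lpcat3 at 0.77, Nceh1 at 0.51, Npc2 at 0.46 and Stard5 at 0.41) and Insig2 fell by 0.98 on the log2 scale (adjusted p = 4.9e-06). These are 5 of 33 in a table where 18.9% of all genes passed. Nceh1 hydrolyses cholesteryl esters, and Insig2 is the other retention protein of the SREBP escort. The adjusted p of Npc2 was 0.0303 under CR and 0.000477 under TR. The list medians, -0.03 and 0.03, lay near the all-gene medians, each within 0.01 of 0.

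In iWAT some genes of the list passed under each diet. Under CR, 3 of 33 rose and 1 fell in the authors' deposited table, where 7.3% of all genes passed: Insig1 rose by 2.56 on the log2 scale, Lpcat3 by 1.06 and Stard5 by 0.81, and Apoa1 fell by 4.33. Apoa1 encodes an apolipoprotein made in liver, and 8 of 9 hepatocyte markers fell in the same table (median -3.91), whose part was not tested. Under TR, 4 of 34 rose and 1 fell, where 10% of all genes passed, namely Insig1 at a log2 fold change of 2.74, Lpcat3 at 1.30, Stard5 at 1.25 and Npc2 at 0.99, and, as the gene that fell, the endocytic receptor Lrp1 at -0.99. The list medians were 0.06 and 0.13, beside 0.02 and -0.04 over all genes.

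In the approximate test of the tissue difference, 3 of 32 list genes passed under CR, beside 6.73% of all genes, and 3 of 33 under TR, beside 7.81%. Under CR the effect in iWAT lay above that in liver for Insig1 by 1.98 (adjusted p = 0.000468) and for Srebf2 by 1.05 (adjusted p = 0.0239), and the difference for Apoa1 was -4.06 (adjusted p = 0.0178). Under TR it lay above that in liver for Insig1 by 2.55 (adjusted p = 1.0e-09) and for Stard5 by 0.84 (adjusted p = 0.0352), and the difference for Lrp1 was -1.17 (adjusted p = 0.0352). The LXR genes did not pass: Nr1h3 had log2 fold changes of -0.09 and 0.04 in liver and 0.07 and 0.32 in iWAT in the authors' deposited tables, and Nr1h2 had -0.48 (adjusted p = 0.110) and 0.02 in liver and -0.02 and -0.20 in iWAT. Between the restricted diets, 1 of 33 list genes passed in liver, beside 0.469% of all genes, where Pltp, which transfers phospholipid between lipoproteins, was lower under CR than under TR (-0.73, adjusted p = 0.00926). In iWAT 2 of 32 did, beside 0.918% of all genes, Apoa1 (-5.74) and Lcat (-3.67), both lower under CR. Both are products of hepatocytes in the main, and the 9 hepatocyte markers had a median of -6.12 in that table, whose part was not tested.

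**Figure D5:**
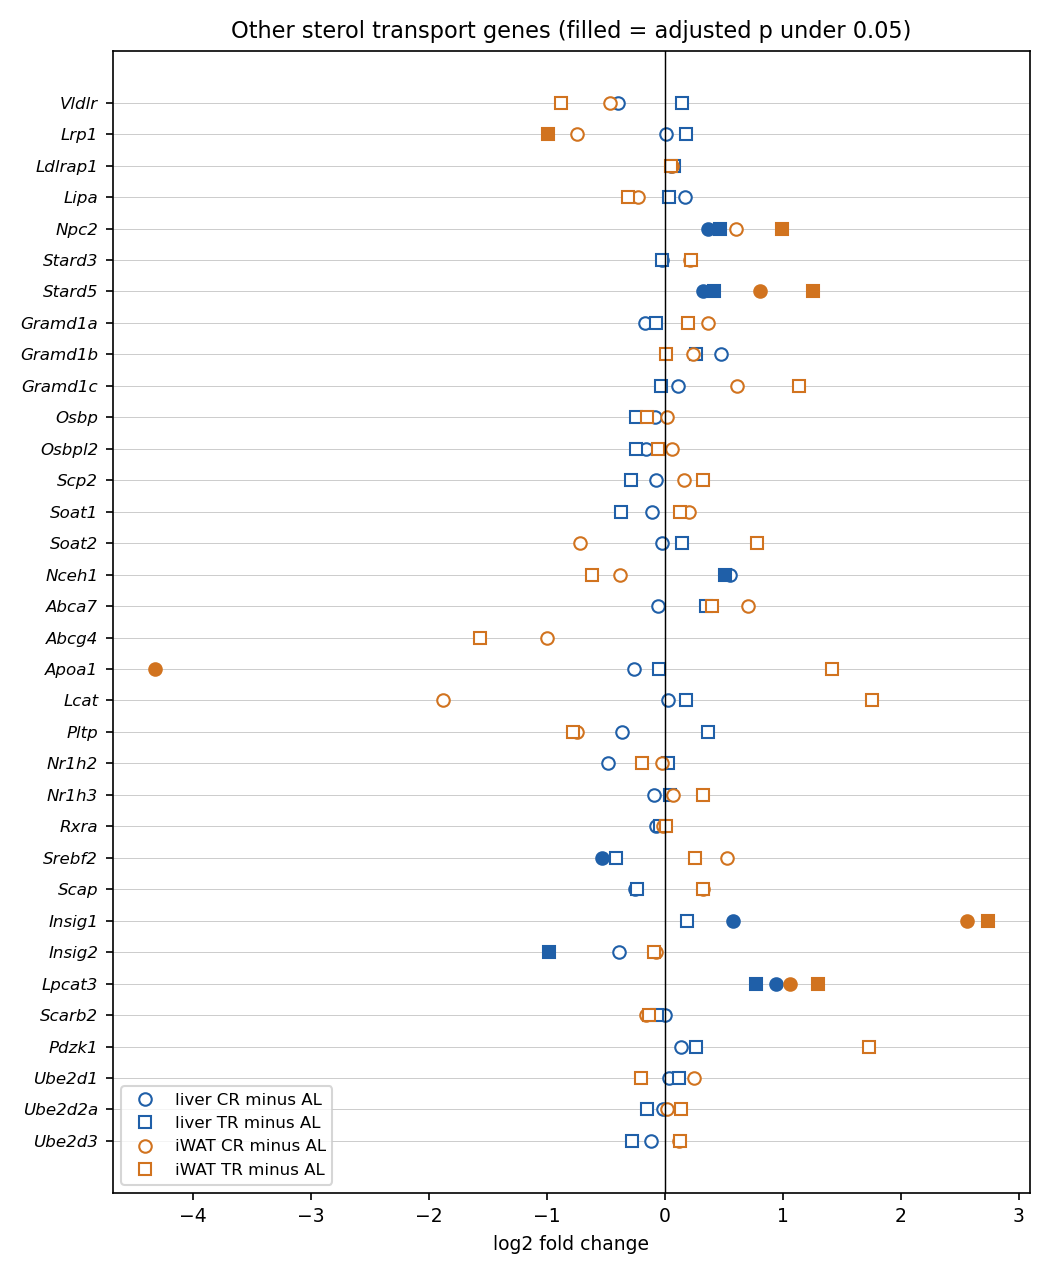
Log2 fold change (horizontal axis) of the other sterol transport genes in liver (blue) and iWAT (orange) for CR minus AL (circles) and TR minus AL (squares); filled symbols have an adjusted p under 0.05. Insig1, Lpcat3 and Stard5 are filled to the right in iWAT on both diets.

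The genes most like Npc1 over the comparisons against AL in both tissues were ranked by Euclidean distance of log2 fold changes. The ranking took 9802 of the genes found in all 4 of the authors' deposited tables. Genes whose log2 mean CPM fell below 1 in any of these tables were left out. Predicted genes with placeholder names (Gm, Rik and similar) were left out too. The nearest were Trim21 at 0.08, Btrc at 0.10, Wwp2 at 0.11, Amn1 at 0.11 and Anxa7 at 0.12. Trim21, for example, had -0.46 under each diet in liver, and 0.04 and -0.06 in iWAT. These are distances over 4 comparisons that share their controls within a tissue, with no test.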

How the data were processed

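The submitters' processing notes name bcl2fastq 2.20, STAR 2.5.3a, RSEM and the build GRCm38.p5. Libraries were made with an Illumina TruSeq kit from Trizol RNA, per the labels' protocols. The authors compared groups with edgeR generalized linear models, per the file headers. The sources used here do not give the authors' edgeR version, filter, scaling or annotation.

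The 12 tables (6 of genes, 6 of transcripts) were used as deposited. The log2 columns hold the authors' fold change and mean CPM, both from the file headers. As a score, the authors gave likelihood-ratio statistics, and the p-value columns are the unadjusted p-value and the false discovery rate of the deposited tables. As far as the files show, each table was normalized on its own. The depth of single libraries is unknown.

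Recomputed from the statistic by a chi-square with 1 degree of freedom, p lay within 5e-06 of the deposited one, and the deposited false discovery rate lay within 0.00626 of a Benjamini-Hochberg adjustment. Dividing the absolute log2 fold change by the root of the statistic gave an approximate standard error, and intervals are 95%. The tissue difference was the iWAT less the liver log2 fold change over the root of the summed squared errors, with a normal 2-sided p and Benjamini-Hochberg adjustment over all genes in both tables. It takes the tissues as uncorrelated. CPM per kb divides by GENCODE M21 transcript length. An animal number shared by CR and TR labels was counted as different mice.

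A gene of the sterol list is not reported here and was left out of its counts. The members and lists were chosen with earlier results of these data known. Named are all 8 members, their leading or called transcripts, up to 6 called genes of the sterol list per comparison with the smallest adjusted p, and the genes most like Npc1. Other genes, markers and transcripts named were chosen after their values were seen. Alternatives were other thresholds (0.01, 0.1), a size minimum (0.5 log2 units), a level minimum (log2 mean CPM of 1 for genes, 0 for transcripts), centring on the median and leading transcripts. Python 3.11.15, pandas 2.3.3, numpy 2.4.6, scipy 1.17.1 and matplotlib 3.10.9 were used.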

Additional observations from a re-analysis of the deposited data

Results flagged for a closer look

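The effect of TR on Stard4 passed the approximate test of a difference between tissues. The log2 fold change in iWAT lay 1.14 above that in liver, with an adjusted p of 0.0316 in that test. With an assumed correlation of -0.3 between the tissues this call is lost. Neither tissue passed on its own in the authors' deposited tables, at -0.36 in liver (adjusted p = 0.0822) and 0.79 in iWAT (adjusted p = 0.125).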

How the results depend on the processing

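Of 90 alternative values for 20 results, 74 stayed within the bounds set and 0 changed direction. Where the count was 0, a stricter threshold or a size or level minimum can only return 0 again. The 74 thus include values that could not move. Centring on the median returned the same genes each time. The all-gene medians lay between -0.038 and 0.024 log2 units, so it had little room to move a call. At an adjusted p under 0.01, members called in liver TR minus AL numbered 1 (Npc1), sterol list genes in liver CR minus AL 1 in iWAT TR minus AL 3 and in iWAT CR minus TR 0, and transcripts in liver 0 under CR and 0 under TR. At 0.1, members numbered 2 in liver CR minus AL (Abcg5 added) and 4 in liver TR minus AL (Abcg8 and Stard4 added), list genes in liver TR minus AL 8, and members with a tissue difference under CR 2. A size minimum of 0.5 left 0 members in liver CR minus AL, and 3 list genes under each diet in liver. By leading transcript, 1 member passed in liver TR minus AL. A correlation of 0.3 between tissues gave 2 members with a difference under CR, and -0.3 gave 0 under TR. Some of these values lie close to a cutoff, such as Npc1 in liver CR minus AL, at -0.49 beside the minimum of 0.5. CR minus AL less TR minus AL lay within -0.0038 to 0.00059 of the direct liver comparison for the 8 members and 0.045 to 0.075 from the iWAT one for 6. No paired analysis was run. The diets were given to different animals, so they could not be paired. Pairing the tissues of the 16 mice that gave both needs values per library, which were not used here. Leaving out each replicate needs the same values and was not run. The edgeR tables hold no depth, so limits from counting could not be given.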
